A study of Mus musculus with 32 samples.

Results

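The 9 genes described here are the forebrain and eye-field transcription factors Six3, Six6, Rax, Emx2, Lhx2, Hesx1, Nkx2-1, Vax1 and Vax2. They were chosen by name and matched by Ensembl identifier, and all 9 were found among the 48576 identifiers of the expression tables. The rule uses no measured value, although the genes were picked with earlier results of these data known.

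RNA was sequenced from forebrain (Fb) and midbrain (Mb) tissue of mouse embryos at E9.5 on the B6C3F1 background, in 16 Fb and 16 Mb libraries. In each tissue, 6 libraries came from wild type (WT) embryos of WT matings. The other 10 came from intercrosses of mice heterozygous for knockouts of 3 type II cadherin genes, Cdh6, Cdh8 and Cdh11. TKO_Ex (n = 4) are triple knockout embryos with exencephaly, an open cranial neural tube. DKO_Ex (n = 3) are double knockouts with exencephaly, labelled as lacking Cdh8 and Cdh11. DKO_CD (n = 3) are double knockouts without exencephaly that had an elongated Mb, called a cranial defect. The labels give Cdh6 and Cdh8 for DKO_CD, whereas the methods of the study describe Cdh8 and Cdh11 for both double knockouts. All knockout alleles are small frameshift deletions at the translation start that were made in 1 line by genome editing, so the effect of the cadherins and that of the line and mating cannot be told apart. Replicates are taken as separate embryos, and p-values measure only the spread between these libraries.

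Members of this gene set are homeobox genes, whose proteins bind DNA and switch other genes on or off. In the anterior neural plate Six3, Six6, Rax and Lhx2 act in the eye field, the group of cells from which both eyes form. Emx2 and Lhx2 also pattern the dorsal telencephalon, Hesx1 the anterior forebrain and the pituitary primordium, Nkx2-1 the hypothalamus and ventral telencephalon, and Vax1 and Vax2 the ventral eye and optic stalk. The midbrain, marked by En1, En2, Pax5 and Wnt1, lies behind this territory.

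Values are FPKM, fragment counts scaled for exon length and for depth. Libraries held an estimated 1.96 to 3.255 M fragments each. From FPKM, this depth and the length of all exons of a gene, fragments per gene were approximated. In the Fb, Lhx2 rested on a median of about 903 fragments, Vax1 on 24.5, Hesx1 on 9.5 and Vax2 on 6. In 12 double knockout files the column heading and the record name opposite groups, and the headings were followed. Cdh6 lay at 0.345 to 0.388 FPKM in 3 TKO_Ex Mb libraries and at 3.10 FPKM in TKO_Ex Mb replicate 3, within the WT range of 1.04 to 3.55 FPKM. Replicate 3 of the TKO_Ex Fb likewise had 3.74 FPKM against 2.04 to 3.997 FPKM in WT. The libraries so labelled stayed in their groups. En1, a defining Mb gene, was at 19.1 to 65.5 FPKM in 15 of the 16 Mb libraries and at 3.57 FPKM in WT Mb replicate 5.

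Six3 and Six6, a pair of closely related homeobox factors, were on in every Fb library and nearly silent in every Mb library. Six3 (ENSMUSG00000038805) is a plus-strand gene of chromosome 17, spanning bases 85613608 to 85629302 of GRCm38, the build of all positions here. In the WT Fb it ranged from 34.9 to 48.9 FPKM with a median of 37.1 FPKM. Mutant Fb values were 54.5, 48.5, 44.6 and 33.5 FPKM for TKO_Ex, 47.5, 54.4 and 42.7 FPKM for DKO_Ex and 56.9, 33.1 and 39.8 FPKM for DKO_CD. Its highest Mb value was 1.57 FPKM, in DKO_Ex replicate 2, far under the lowest Fb value of 33.1 FPKM. Six6 (ENSMUSG00000021099), on chromosome 12 at 72939892 to 72944899, plus strand, ranged from 6.52 to 11.8 FPKM in the WT Fb with a median of 9.91 FPKM. In Fb of the mutants it was 10.9, 9.76, 11.6 and 9.02 FPKM for TKO_Ex, 9.21, 14.6 and 11.01 FPKM for DKO_Ex and 9.98, 8.69 and 8.10 FPKM for DKO_CD. Six6 was listed at 0 in 13 of the 16 Mb libraries, among them all 10 mutant libraries. The stretches of 250 bases before the start of the 2 genes are shown because both genes were on in every Fb library and close to 0 in every Mb library. They come from RefSeq on GRCm38.p6, chr17:85620584-85620833 for Six3 and chr12:72939632-72939881 for Six6, both on the plus strand. The Six3 stretch lies inside the gene as GENCODE draws it, outside its exons. Capitals mark CCAAT and GGGCGG on either strand.
Six3: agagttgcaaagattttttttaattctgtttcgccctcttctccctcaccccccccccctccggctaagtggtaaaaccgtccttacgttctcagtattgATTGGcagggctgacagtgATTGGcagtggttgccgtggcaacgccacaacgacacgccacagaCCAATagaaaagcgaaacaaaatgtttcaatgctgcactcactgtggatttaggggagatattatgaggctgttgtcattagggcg
Six6: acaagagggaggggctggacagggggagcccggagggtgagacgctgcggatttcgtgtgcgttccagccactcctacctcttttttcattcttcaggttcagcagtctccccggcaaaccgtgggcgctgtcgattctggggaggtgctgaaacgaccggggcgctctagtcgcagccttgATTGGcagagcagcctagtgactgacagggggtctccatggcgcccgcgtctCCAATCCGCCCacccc
Six3 held 3 CCAAT matches and no GGGCGG match. Six6 held 2 CCAAT matches and 1 GGGCGG match, which directly follows the second CCAAT.

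Lhx2 and Emx2, which act in the eye field and the cerebral cortex, had high Fb levels and clear traces in single Mb libraries. Lhx2 (ENSMUSG00000000247), on chromosome 2 at 38339281 to 38369733, plus strand, ranged from 53.2 to 86.3 FPKM in the WT Fb with a median of 73.9 FPKM. Mutant Fb values were 97.96, 77.9, 49.4 and 28.9 FPKM for TKO_Ex, 80.5, 78.9 and 80.0 FPKM for DKO_Ex and 97.1, 30.4 and 73.3 FPKM for DKO_CD. TKO_Ex replicates 3 and 4 and DKO_CD replicate 2 thus had less than every WT library, while replicate 1 of both groups had more. In the Mb it was at most 2.86 FPKM except for 9.05 FPKM in WT replicate 5 and 7.56 FPKM in TKO_Ex replicate 2. Emx2 (ENSMUSG00000043969), on chromosome 19 at 59458372 to 59465357, plus strand, ranged from 13.9 to 24.8 FPKM in the WT Fb with a median of 19.9 FPKM. In Fb of the mutants it was 23.2, 22.6, 21.1 and 9.87 FPKM for TKO_Ex, 18.8, 31.1 and 19.0 FPKM for DKO_Ex and 26.1, 16.5 and 26.1 FPKM for DKO_CD. In the Mb, DKO_CD replicate 1 reached 11.4 FPKM, above the lowest Fb library, and all others were at most 2.59 FPKM.

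Hesx1 was low in both tissues and had the smallest difference between them in WT. Hesx1 (ENSMUSG00000040726), on chromosome 14 at 26994416 to 27002329, plus strand, is a repressor needed for the anterior forebrain and pituitary. It ranged from 1.31 to 4.52 FPKM in the WT Fb with a median of 2.81 FPKM. Mutant Fb values were 3.89, 4.18, 3.25 and 7.32 FPKM for TKO_Ex, 1.2, 6.85 and 6.34 FPKM for DKO_Ex and 2.16, 1.18 and 0.404 FPKM for DKO_CD. DKO_Ex replicate 1 therefore sat with the lowest libraries and the other two among the highest. In the Mb it reached 1.76 FPKM in WT, and 9 of 16 Mb libraries were at or above the lowest Fb library. Its upstream stretch is shown beside that of Lhx2, the member with the highest Fb level, because their shares of G and C were the highest and the lowest among the members with an entry. The RefSeq stretches on GRCm38.p6 are chr2:38339031-38339280 for Lhx2 and chr14:27000112-27000361 for Hesx1, both on the plus strand, with the same matches in capitals. That of Hesx1 lies inside the gene as GENCODE draws it, outside its exons.
Lhx2: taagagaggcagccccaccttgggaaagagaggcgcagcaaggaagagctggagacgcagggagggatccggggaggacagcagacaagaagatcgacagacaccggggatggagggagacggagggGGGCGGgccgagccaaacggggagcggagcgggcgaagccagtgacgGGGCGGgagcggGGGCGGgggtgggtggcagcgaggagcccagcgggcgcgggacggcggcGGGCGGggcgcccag
Hesx1: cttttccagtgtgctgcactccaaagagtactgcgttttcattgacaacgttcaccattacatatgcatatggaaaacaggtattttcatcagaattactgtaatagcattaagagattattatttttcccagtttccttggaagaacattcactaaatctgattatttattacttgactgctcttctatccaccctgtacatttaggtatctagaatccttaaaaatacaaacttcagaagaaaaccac
The Lhx2 stretch shown held 4 GGGCGG matches and no CCAAT match, and Hesx1 held neither. A second Lhx2 entry, chr2:38351058-38351307, lies within exons of the gene and is not shown. It held neither match, with 68.4% G and C and 24 CG pairs. G and C made up 72.8% of the shown Lhx2 bases and 34% of Hesx1, against 62.8% in Six6 and 48.8% in Six3. The median was 52.4% over the 32851 stretches of the same length in RefSeq (quartiles 45.2% and 61.2%). The pair CG occurred 25 times in Lhx2, 17 in Six6, 10 in Six3 and 2 in Hesx1, against a median of 6. CCAAT on either strand was present in 33.8% of all stretches, GGGCGG in 32.7%, the homeodomain core TAATTA in 4.84% and TATAAA in 12.4%. Of the 7 members with an entry, none held TAATTA or TATAAA in its window, and these matches are descriptions of letters only.

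Rax, a retinal homeobox gene without which eyes do not form, was read in every Fb library and hardly at all in the Mb. Rax (ENSMUSG00000024518) lies on chromosome 18 at 65928277 to 65939787, minus strand. It ranged from 5.35 to 19.2 FPKM in the WT Fb with a median of 13.2 FPKM. In Fb of the mutants it was 18.9, 13.5, 10.7 and 5.499 FPKM for TKO_Ex, 12.3, 18.4 and 13.4 FPKM for DKO_Ex and 13.0, 5.36 and 10.9 FPKM for DKO_CD. The lowest Fb library of each of WT, TKO_Ex and DKO_CD was therefore near the same level. In the Mb, Rax was listed at 0 in each of the 6 WT libraries and in 13 of the 16 Mb libraries, with a highest value of 0.329 FPKM.

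Nkx2-1, Vax1 and Vax2 mark ventral territories, and their group means were lower in the Mb in each genotype, although not every difference passed. Nkx2-1 (ENSMUSG00000001496), on chromosome 12 at 56531958 to 56536908, minus strand, ranged from 7.93 to 31.0 FPKM in the WT Fb with a median of 22.1 FPKM. Mutant Fb values were 22.4, 26.6, 11.8 and 17.9 FPKM for TKO_Ex, 23.8, 18.8 and 22.4 FPKM for DKO_Ex and 31.1, 12.9 and 23.4 FPKM for DKO_CD. No mutant value fell outside the WT range except DKO_CD replicate 1, which was just above it. In the Mb it was listed at 0 in 9 of 16 libraries and was 6.25 FPKM in DKO_Ex replicate 2. Vax1 (ENSMUSG00000006270), on chromosome 19 at 59166187 to 59170056, minus strand, ranged from 3.94 to 26.7 FPKM in the WT Fb with a median of 7.54 FPKM. In Fb of the mutants it was 11.2, 9.42, 3.05 and 1.77 FPKM for TKO_Ex, 12.2, 5.32 and 4.42 FPKM for DKO_Ex and 8.79, 5.78 and 8.67 FPKM for DKO_CD. WT replicate 5 was the highest Fb library, and TKO_Ex replicates 3 and 4 were below every WT library. Vax1 was listed at 0 in 15 of the 16 Mb libraries, all 10 mutant libraries included. Vax2 (ENSMUSG00000034777), on chromosome 6 at 83711264 to 83738313, plus strand, ranged from 1.17 to 2.87 FPKM in the WT Fb with a median of 2.02 FPKM. Mutant Fb values were 2.63, 1.87, 0 and 1.40 FPKM for TKO_Ex, 3.22, 1.53 and 0.869 FPKM for DKO_Ex and 3.47, 0 and 2.53 FPKM for DKO_CD. At about 6 fragments per library a listing at 0 does not show absence. In the Mb, Vax2 was listed at 0 in 14 of 16 libraries.

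**Figure D1:**
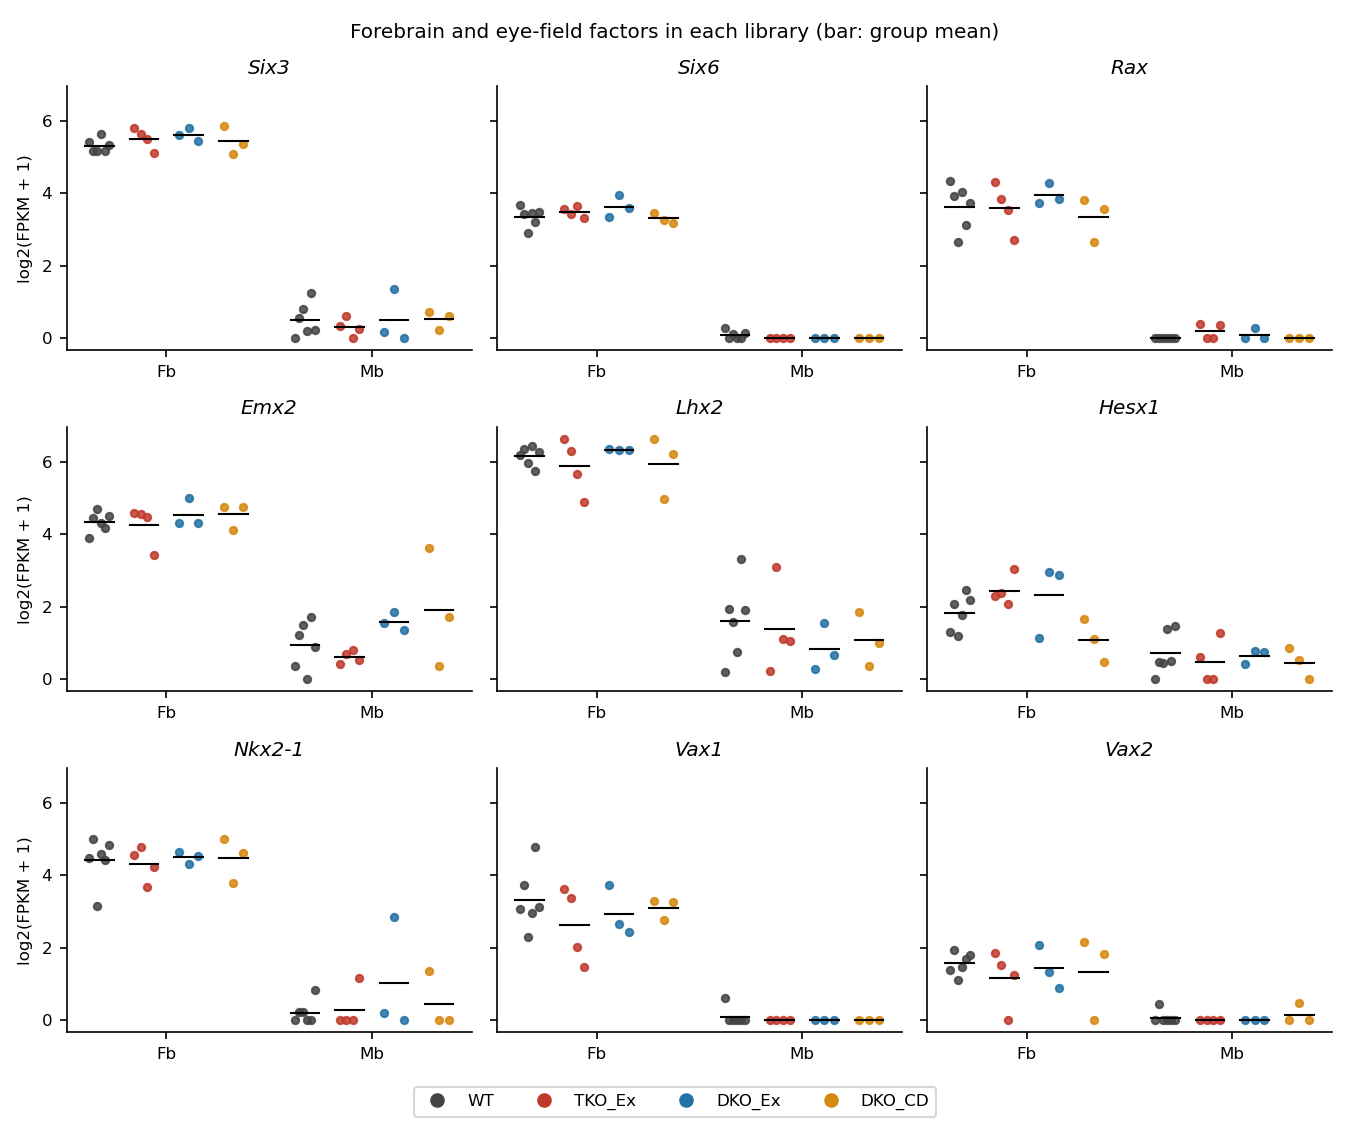
Each point is the log2(FPKM + 1) of a gene in 1 library, grouped by tissue (Fb left, Mb right) and coloured by genotype, with a bar at each group's mean. For 6 of the 9 genes no Mb library reaches the lowest Fb library, and Emx2, Hesx1 and Vax2 are the exceptions.

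FPKM account for length, so the members can be ordered by level within the WT Fb. By the mean of log2(FPKM + 1) the order was Lhx2, Six3, Nkx2-1, Emx2, Rax, Six6, Vax1, Hesx1 and Vax2. By mean FPKM Vax1 (10.8 ± 8.24 FPKM) came before Six6 (9.41 ± 1.82 FPKM), with 71.4 ± 12.3 FPKM for Lhx2, 39.1 ± 5.51 FPKM for Six3 and 2.03 ± 0.621 FPKM for Vax2 (SD, n = 6). Each neighbouring pair was compared by a two-sided exact sign-flip permutation test on log2(FPKM + 1) over the 6 libraries. Lhx2 over Six3, Six3 over Nkx2-1 and Vax1 over Hesx1 held in 6 of 6 libraries (exact p = 0.03125 for each, the smallest the design allows, and 0.0833 after Benjamini-Hochberg adjustment over 8 pairs). By these differences Lhx2 exceeded Six3 by 0.84, Six3 exceeded Nkx2-1 by 0.90 and Vax1 exceeded Hesx1 by 1.49 on the log2(FPKM + 1) scale. The remaining 5 pairs had exact permutation p from 0.0938 to 0.969. None of the 8 was under 0.05 after adjustment, and the order was set by the same values, so it is a description. Nkx2-1 and Emx2, and Six6 and Vax1, were close to level, with mean log2 differences of 0.07 and 0.03.

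The tissue comparison asks how far these genes separate the Fb from the Mb in each genotype. For Six3, Six6, Rax, Lhx2, Nkx2-1 and Vax1, all 16 Fb libraries lay above all 16 Mb libraries. This held for 6 of 9 members, against 0.58% of the 13441 genes that averaged 1 FPKM or more. Vax2 averaged less than 1 FPKM over both tissues and is not among those genes. Members near 0 in the Mb are among them only through their Fb values. Of the 144 member values in the Mb, 72 were listed at 0 and 4 were above 5 FPKM, whereas 2 of 144 were listed at 0 in the Fb. Bulk tissue was sequenced, so fewer cells of a type and less RNA per cell cannot be told apart. Within each genotype Mb and Fb were compared with limma on log2(FPKM + 1), with Benjamini-Hochberg adjustment over all genes tested and a threshold of 0.05. Differences on this scale understate the change of low genes. In WT all 9 members passed, each lower in the Mb, against 3.6% of 13344 genes called lower in the Mb. Entry needed a mean of 1 FPKM over both tissues, so a member near 0 in the Mb entered only through its Fb values. For such members the direction was largely set on entry, in each genotype. The log2 differences were -4.80 for Six3, -4.54 for Lhx2, -4.20 for Nkx2-1, -3.63 for Rax, -3.39 for Emx2, -3.27 for Six6 and -3.23 for Vax1, with standard errors of 0.15 to 0.40. The smallest differences were those of the low genes Vax2 (-1.501, adjusted p = 0.000149 by limma) and Hesx1 (-1.12, adjusted p = 0.0348). The call for Hesx1 was lost without any of 8 of the 12 WT libraries in turn, at a log2 difference of -0.97 to -1.13. WT Mb replicate 5, the library with low En1, had the highest WT Mb levels of Lhx2 and Emx2, and without it their differences were -4.88 and -3.54.

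In TKO_Ex, 8 members were tested and 8 were lower in the Mb, against 1.35% of 13477 genes. The log2 difference was -5.21 for Six3, -4.50 for Lhx2, -4.02 for Nkx2-1, -3.64 for Emx2, -3.49 for Six6, -3.41 for Rax, -2.62 for Vax1 and -1.98 for Hesx1. The calls for Hesx1 and Vax1 were lost without TKO_Ex Fb replicate 2 or TKO_Ex Mb replicate 2. The call for Vax1 was also lost without TKO_Ex Mb replicate 1 or 4. Vax2 was under the mean of 1 FPKM. It was listed at 0 in all 4 TKO_Ex Mb libraries and at up to 2.63 FPKM in the Fb (two-sided exact permutation test, p = 0.143). In DKO_Ex, 6 of 8 tested members were lower in the Mb, against 0.924% of 13314 genes. Those 6 were Lhx2 (-5.495), Six3 (-5.10), Rax (-3.86), Six6 (-3.63), Emx2 (-2.96) and Vax1 (-2.94). Nkx2-1 (-3.48, 95% confidence interval -5.15 to -1.80, limma adjusted p = 0.0584) and Hesx1 (-1.68, interval -2.86 to -0.50, adjusted p = 0.176) did not pass. Without DKO_Ex Mb replicate 2, where Nkx2-1 was 6.25 FPKM, its difference was -4.40 and passed, and Hesx1 passed at -2.27 without DKO_Ex Fb replicate 1. In DKO_CD, 6 of 8 tested members were lower in the Mb, against 0.283% of 13415 genes. They were Six3 (-4.91), Lhx2 (-4.86), Nkx2-1 (-4.01), Rax (-3.35), Six6 (-3.31) and Vax1 (-3.11). Emx2 (-2.64, adjusted p = 0.273 by limma) and Vax2 (-1.17, adjusted p = 0.588) did not pass, and Emx2 had 11.4 FPKM in DKO_CD Mb replicate 1. Only Six3, Six6 and Vax1 were still called without DKO_CD Fb replicate 1, without DKO_CD Fb replicate 3 or without DKO_CD Mb replicate 3, and the call for Nkx2-1 was also lost without DKO_CD Mb replicate 2. Vax2 in DKO_Ex and Hesx1 in DKO_CD were under the filter, and 3 libraries against 3 cannot go below an exact p of 0.1. Vax2 was 0.869 to 3.22 FPKM in the DKO_Ex Fb and listed at 0 in the Mb, and its exact permutation p was 0.1. Hesx1 was 0.404 to 2.16 FPKM in the DKO_CD Fb and at most 0.808 FPKM in the Mb, with an exact permutation p of 0.3. Members under the filter were too low for the model, so the counts cover those that passed it. The 12 double knockout libraries of the DKO_Ex and DKO_CD groups can also be grouped by record. As heading and record were opposite in all 12, that grouping only exchanges the names DKO_Ex and DKO_CD, with every value unchanged. The 6 members called in each group thus move to the other name, with Nkx2-1 called in DKO_Ex and Emx2 in DKO_CD.

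**Figure D2:**
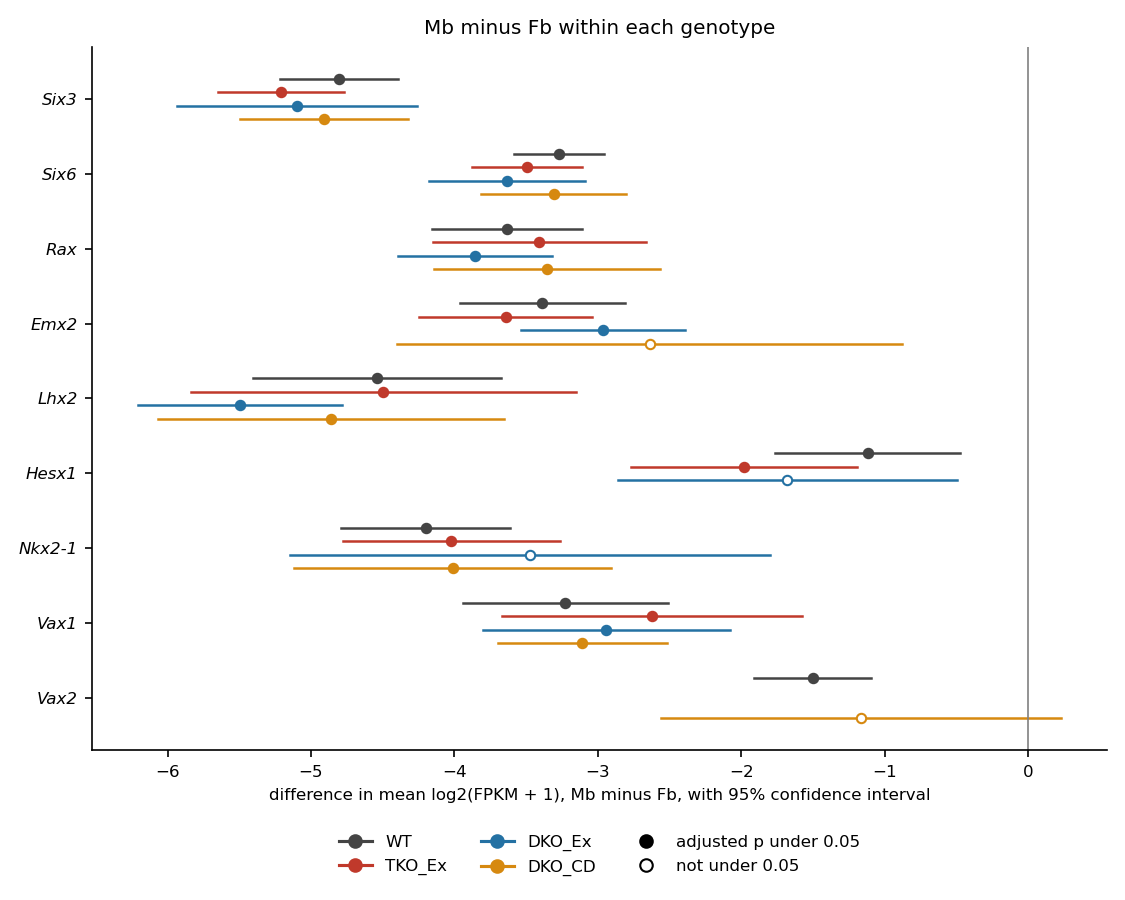
The difference of mean log2(FPKM + 1), Mb minus Fb, is drawn for each gene and genotype with its 95% confidence interval from limma. Filled points passed an adjusted p of 0.05, and every point lies below 0. On this scale Six3 and Lhx2 lie farthest from 0 and Hesx1 and Vax2 nearest. By mean FPKM in WT, the Fb was 24.45 times the Mb for Lhx2, 33.94 times for Vax2 and 79.73 times for Six3.

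Whether the size of the Mb to Fb difference itself changed with genotype was tested as an interaction in limma. Members near 0 in the Mb entered these fits only through their Fb values. For them the interaction is largely the Fb difference between mutants and WT with its sign reversed, as for Vax1 (-0.47 in the Fb for all mutants). These tests therefore add little to the comparison of mutants and WT in the Fb. None of the 34 member tests passed, and 0 of them had an unadjusted p under 0.05. Among all genes, 0.0149% were called in TKO_Ex, 0% in DKO_Ex, 0.00746% in DKO_CD and 0% in all mutants together. For all mutants against WT the differences of the 8 tested members ran from -0.37 for Hesx1 (95% confidence interval -1.30 to 0.56) to 0.36 for Vax1 (-0.45 to 1.17). Six6 had the narrowest interval, -0.52 to 0.10. The lowest and the highest single values were -0.96 for Lhx2 in DKO_Ex (-2.32 to 0.40) and 0.75 for Emx2 in DKO_CD (-0.73 to 2.22), both with intervals that hold 0. The lowest unadjusted p by limma was 0.0845, for Hesx1 in TKO_Ex (-0.86, -1.86 to 0.13). These 4 comparisons share the WT libraries.

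Other genes of the same territories were read beside the members in WT. Of 12 telencephalon factors 11 were tested and 7 were lower in the Mb, 0 higher, with a median log2 difference of -1.99, against -3.39 for the members and -0.003 for all genes tested. The smallest difference was that of Sp8 (-0.02), which was 11.1 FPKM in the Fb and 10.9 FPKM in the Mb. Of 8 diencephalon and hypothalamus factors 6 were tested, 2 were lower in the Mb and 1 was higher. Lhx5 had the largest difference (-2.97), Nkx2-2 the smallest (0.11), and Lhx9, another LIM homeobox gene, was higher in the Mb (1.59, limma adjusted p = 0.0164). Of 8 optic vesicle factors 5 were tested and 4 were lower in the Mb, from Tbx2 (-2.84) to Mitf (-0.90), while Pax2, a gene of the optic stalk and the isthmus, differed by -0.36 and did not pass. Of 12 midbrain and isthmus genes all 12 were tested and 10 were higher in the Mb, led by En2 (5.20), while Fgf8, a signal of both the anterior neural ridge and the isthmus, differed by -0.57 and did not pass. Of 14 signals and modulators 10 were tested, 5 were lower in the Mb and 1 was higher. Aldh1a3, a retinoic acid synthesizing enzyme of the eye and face, was the largest (-4.64), Shh the smallest (-0.08), and Fgf15 the one that was higher (0.81). In the mutants, 7, 6 and 6 of the 11 tested telencephalon factors were lower in the Mb in TKO_Ex, DKO_Ex and DKO_CD. For midbrain and isthmus genes 9, 8 and 3 of 12 were higher, with medians of 2.21, 2.27 and 1.975. Among all genes 207 of 13477, 221 of 13314 and 30 of 13415 were called higher, so fewer genes of any kind passed in DKO_CD.

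**Figure D3:**
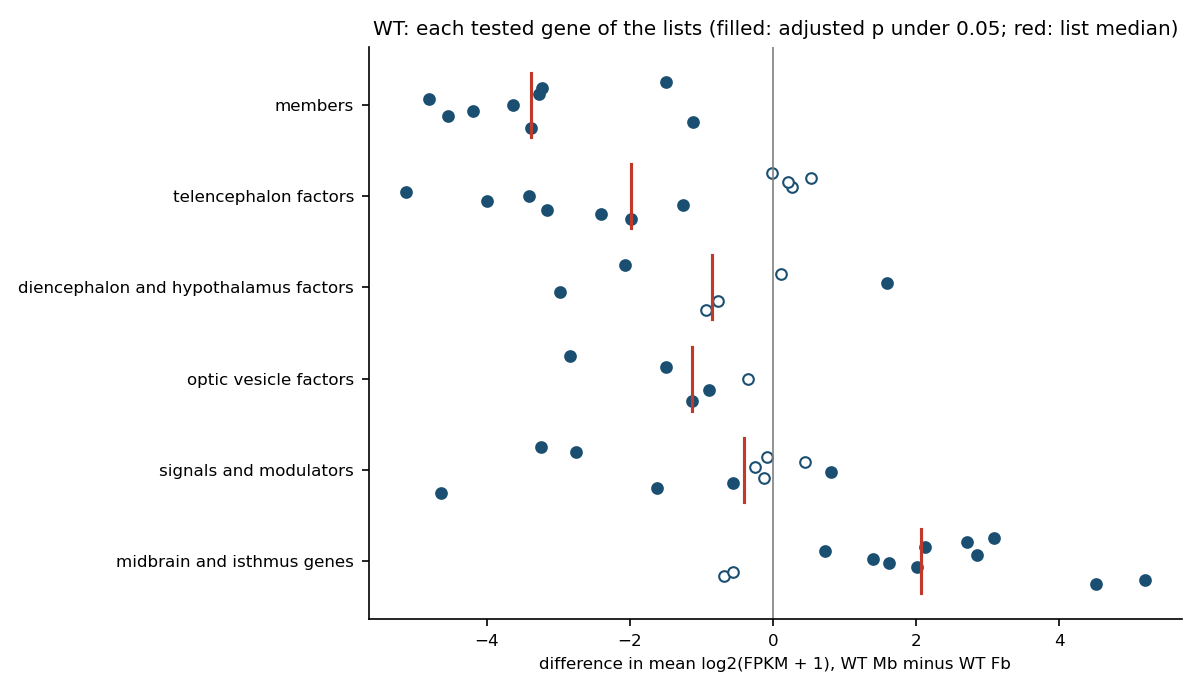
Each point is a tested gene in the WT comparison, placed by its difference of mean log2(FPKM + 1), Mb minus Fb, in rows by list, with the list's median in red and filled points past an adjusted p of 0.05. All 9 members lie left of 0, while 10 of 12 midbrain and isthmus genes lie right of it as filled points.

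Mutant and WT embryos were compared within the Fb to ask whether levels of these genes moved with the loss of the cadherins. None of the 9 members passed in any of 5 comparisons with limma, and 1 of the 45 tests had an unadjusted p under 0.05. Among all genes 0.0603% were called in TKO_Ex, 0.0759% in DKO_Ex, 0.0378% in DKO_CD, 0.203% in all mutants together and 0.136% in both double knockouts together. The comparisons share the WT libraries. The single test was Six3 in DKO_Ex, at 48.2 ± 5.90 FPKM (SD, n = 3) against 39.1 ± 5.51 FPKM in WT (SD, n = 6). Its log2 difference was 0.30 (95% confidence interval 0.02 to 0.58, limma unadjusted p = 0.0411 and adjusted p = 0.686), and 1 of 3 libraries was above every WT library. With all 10 mutant libraries the difference of Six3 was 0.20 (-0.05 to 0.46) and that of Six6 was 0.12 (-0.14 to 0.38). For Rax it was -0.00 (-0.58 to 0.58), for Nkx2-1 0.00 (-0.51 to 0.52), for Emx2 0.09 (-0.30 to 0.48) and for Lhx2 -0.13 (-0.66 to 0.40). All 6 intervals hold 0, and that of Six3 and Six6 was the narrowest. The low genes and Vax1 had wider ones, with -0.47 for Vax1 (-1.24 to 0.31), -0.28 for Vax2 (-0.95 to 0.39) and 0.17 for Hesx1 (-0.60 to 0.94).

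The highest and the lowest of the 45 differences were both of Hesx1. Its mean was 4.66 ± 1.82 FPKM (SD) over the 4 TKO_Ex libraries, 4.79 ± 3.12 FPKM over the 3 of DKO_Ex and 1.25 ± 0.880 FPKM over the 3 of DKO_CD, against 2.75 ± 1.26 FPKM over the 6 of WT. The log2 difference from WT was 0.62 in TKO_Ex (95% confidence interval -0.01 to 1.24, limma adjusted p = 0.581) and -0.74 in DKO_CD (-1.51 to 0.02, adjusted p = 0.596). Neither passed. The groups overlapped WT, with 1 of 4 TKO_Ex libraries above all WT libraries and 2 of 3 DKO_CD libraries below them. Pitx1, a marker of Rathke's pouch, the pituitary primordium in which Hesx1 is also expressed, was 41.4 FPKM in TKO_Ex Fb replicate 4, the library with the highest Hesx1. It was 9.04 to 20.2 FPKM in the other 15 Fb libraries. The 4 Rathke's pouch markers summed to 14.6 to 26.2 FPKM in the WT Fb, 20.8 to 62.6 FPKM in TKO_Ex, 15.1 to 31.4 FPKM in DKO_Ex and 26.9 to 33.0 FPKM in DKO_CD. Every DKO_CD sum was thus above the WT range, whereas DKO_CD had the lowest mean of Hesx1, so the sums did not follow Hesx1 across groups. Lhx3, a defining pouch gene, was at most 2.51 FPKM, and the part of this tissue in the Hesx1 values was not tested.

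**Figure D4:**
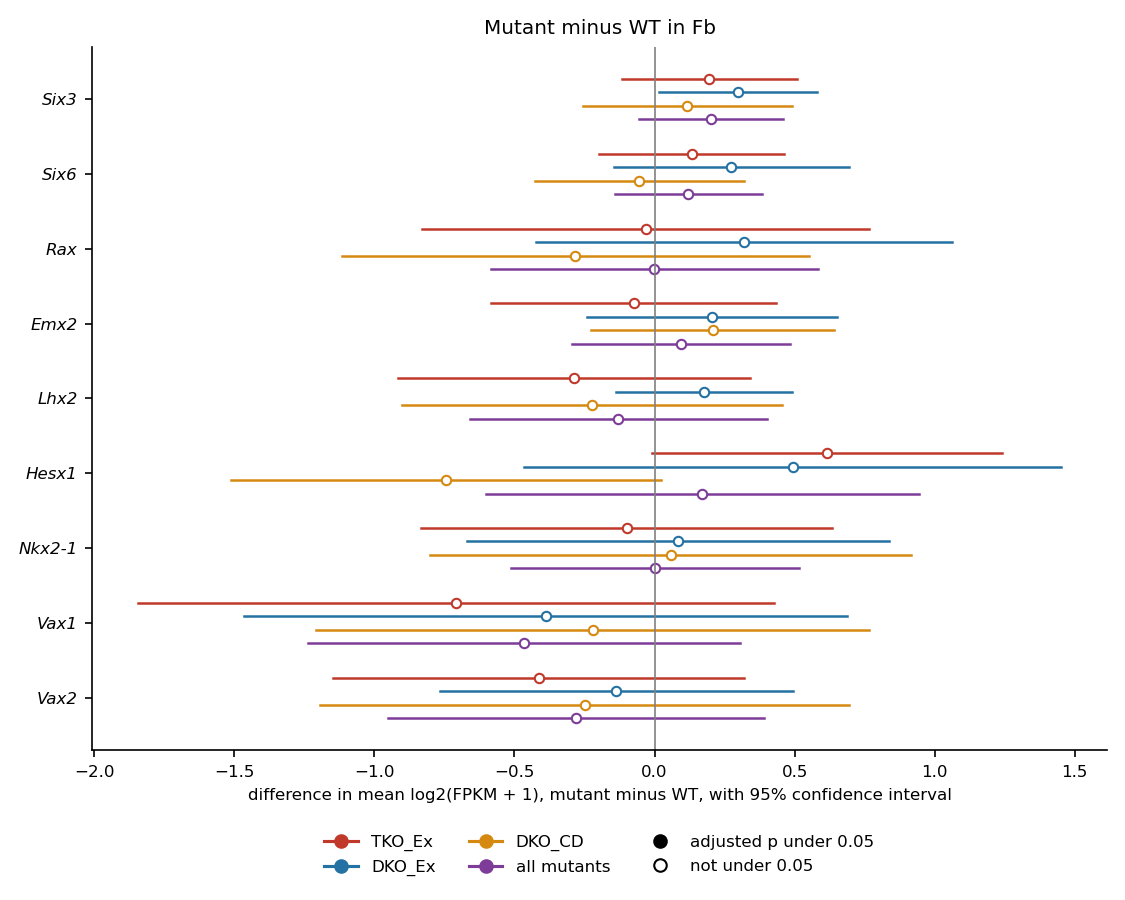
The difference of mean log2(FPKM + 1), mutant minus WT in the Fb, is drawn for each gene and mutant group with its 95% confidence interval from limma. All points are open because 0 of 9 genes passed in any group, and Vax1, Hesx1 and Vax2 have the widest intervals for all mutants.

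Some Fb libraries had low values of several members at once. The mean log2(FPKM + 1) over the 9 members was 3.24 to 4.01 in WT, 3.28 to 4.14 in TKO_Ex, 3.81 to 4.07 in DKO_Ex and 3.09 to 4.07 in DKO_CD. The lowest were DKO_CD replicate 2 at 3.09, WT replicate 3 at 3.24, TKO_Ex replicate 4 at 3.28 and TKO_Ex replicate 3 at 3.40, and all others were at least 3.70. Markers of surface ectoderm and placode (Cdh1, Epcam, Krt8, Krt18, Trp63 and Grhl2), tissues that lie next to the Fb, were high in the 3 low mutant libraries. All 6 were detected in every Fb library, and their sum was 58.1 to 95.3 FPKM in WT, 89.2 to 224.0 FPKM in TKO_Ex, 78.6 to 164.6 FPKM in DKO_Ex and 77.1 to 210.2 FPKM in DKO_CD. TKO_Ex replicates 3 and 4 and DKO_CD replicate 2 had 168.8, 224.0 and 210.2 FPKM. DKO_Ex replicate 2 had 164.6 FPKM without a low member mean (4.07), and WT replicate 3 had a low member mean with 95.3 FPKM. Without these 4 mutant libraries the difference between all mutants and WT was 0.25 for Lhx2, 0.28 for Nkx2-1, 0.22 for Rax, 0.30 for Six3, -0.04 for Vax1 and -0.03 for Hesx1, and the lowest adjusted p of a member in any mutant comparison of the Fb was 0.436 (limma). Lhx2 thus turned from -0.13 to 0.25, Hesx1 from 0.17 to -0.03 and Vax2 from -0.28 to 0.15, with no call on either side. The 12 midbrain and isthmus genes summed to 79.8 FPKM in DKO_CD replicate 2 and 61.9 FPKM in WT replicate 3. Their sum was 74.6 FPKM in TKO_Ex replicate 4 and 57.7 FPKM in TKO_Ex replicate 3. All other Fb libraries had 33.7 to 50.9 FPKM. By mean log2(FPKM + 1) DKO_Ex replicate 3 was at 1.97 without a low member mean, against 1.87 in WT replicate 3. Other cell types moved in some of the same libraries. TKO_Ex replicate 4 and DKO_CD replicate 2 had the lowest sums of 8 head mesenchyme and neural crest markers (99.75 and 79.0 FPKM, against 134.9 to 181.3 FPKM in WT) and of 4 endothelium markers (14.8 and 11.5 FPKM, against 21.7 to 29.2 FPKM in WT). They also had the highest sums of 3 early neuron markers (16.6 and 16.01 FPKM, against 3.09 to 8.14 FPKM in WT). The part of these tissues in the member values was not tested.

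**Figure D5:**
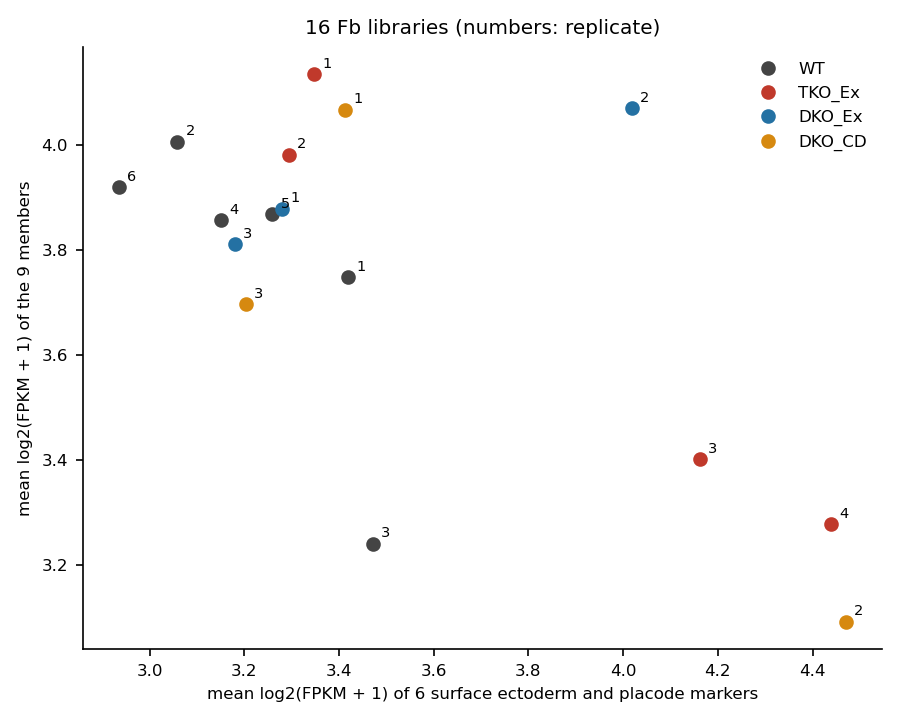
Each point is 1 of the 16 Fb libraries, numbered by replicate and coloured by genotype, with the mean log2(FPKM + 1) of the 6 surface ectoderm and placode markers on the x axis and that of the 9 members on the y axis. TKO_Ex replicates 3 and 4 and DKO_CD replicate 2 lie at the lower right, DKO_Ex replicate 2 at the upper right and WT replicate 3 at the lower left.

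In the Mb the question was whether mutants gained any of these forebrain genes. In limma 0 of the 9 member tests passed, and 0 had an unadjusted p under 0.05. Among all genes 0.0898% were called in TKO_Ex, 0.0903% in DKO_Ex, 0.0375% in DKO_CD, 0.127% in all mutants together and 0.0899% in both double knockouts together. Lhx2 and Emx2 were the members high enough to enter. Lhx2 was 2.92 ± 3.199 FPKM in WT (SD, n = 6) and 1.66 ± 2.21 FPKM in all mutants (SD, n = 10), a log2 difference of -0.50 (95% confidence interval -1.46 to 0.46). Emx2 was 1.10 ± 0.884 FPKM in WT (SD, n = 6) and 2.23 ± 3.33 FPKM in all mutants (SD, n = 10), a log2 difference of 0.34 (-0.55 to 1.24). Single libraries carried these means: the difference of Emx2 was 0.08 without DKO_CD replicate 1, and that of Lhx2 was -0.16 without WT replicate 5. For members under the filter 39 exact tests were made, 3 of them between tissues. The lowest exact permutation p was 0.0357, and 1 after Benjamini-Hochberg adjustment. That test was Six6, listed at 0 in all 10 mutant libraries and at up to 0.213 FPKM in WT. No WT Mb library had more than about 2 fragments of Six6. Traces of a member above 5 FPKM were confined to 4 of the 144 values, each in a different library: Lhx2 in WT replicate 5 and TKO_Ex replicate 2, Nkx2-1 in DKO_Ex replicate 2 and Emx2 in DKO_CD replicate 1. Pax6, which is high in the Fb (44.5 to 70.2 FPKM), was 52.7, 8.79, 30.7 and 40.01 FPKM in these 4 libraries in that order. Pax6 was also 45.9 FPKM in WT Mb replicate 3, where Lhx2 was 1.97 FPKM.

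Genes outside the list were ranked by how closely they followed the members. Each member was standardised on log2(FPKM + 1) and the 9 were averaged. Over the 32 libraries, the 8 genes with the highest Pearson r included Fzd5, Six3os1, Fezf1, Shisa2, Dlk1, C130093G08Rik and Fezf2, with r from 0.988 to 0.978 among 13433 genes. The points fall into an Fb and an Mb cluster, so these r describe mainly the tissue difference. By Spearman rho, 2 of the 8, Fzd5 and Six3os1, stayed among the highest 8. Over the 16 Fb libraries after removal of group means, the highest were Fzd5 (0.937), Six3os1 (0.922), Raxos1 (0.905), Ptprz1, Odr4, Cep250, Pip5k1c and Notch3 (0.873). By Spearman rho 5 of them stayed among the highest 8. The lowest were Atox1 (-0.902), St14, Osbpl3 and Wnt6 (-0.850). Fzd5 encodes a Wnt receptor of the eye field, and Six3os1 and Raxos1 are transcribed opposite to members, from which a directional library can tell them apart. Within the Fb the members did not all move together. The r of each member with the mean of the other 8, group means removed, was 0.824 for Rax, 0.821 for Lhx2, 0.751 for Six3, 0.699 for Nkx2-1 and 0.573 for Vax2. It was 0.445 for Vax1, 0.444 for Six6, 0.419 for Emx2 and 0.045 for Hesx1. These values share depth and dissection within a library and are given as descriptions.

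Neighbours of the members were read to see whether the pattern reached beyond single genes. Of 7 neighbours and antisense partners 5 were tested in WT, and 3 were lower in the Mb. Six3os1, antisense to Six3, was 34.6 ± 4.26 FPKM in Fb of WT and 0.452 ± 0.439 FPKM in Mb (SD, n = 6), a log2 difference of -4.66. Six2, the neighbour of Six3, differed by -3.52. Six4 had the smallest difference at -0.36 and did not pass. Nkx2-9, the neighbour of Nkx2-1, was 5.21 ± 1.73 FPKM in the Fb and 14.4 ± 6.52 FPKM in the Mb (SD, n = 6), opposite in sign to Nkx2-1, without passing the threshold (1.15, limma adjusted p = 0.110). Emx2os and Vax2os were under the filter in WT, with means of 0.460 and 0.164 FPKM in the Fb, and every WT Mb library listed both at 0.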

How the data were processed

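RNA was read from 16 Fb and 16 Mb libraries. The authors deposited FPKM values per gene, made by aligning directional reads to GRCm38 (mm10) with TopHat2 and quantifying them with Cufflinks. Tool versions and the gene annotation are not given in the sources used here. The study tested counts from HTSeq with DESeq2, which were not used here. Depth was estimated from the smallest steps of FPKM in genes with 1 transcript, of which 86.2% to 95.1% of values per library were whole multiples within 0.1 fragments, so intervals cover the spread between libraries only.

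Repeated identifiers (65) were summed, leaving 48576, and 48132 were found in GENCODE M21, which gave positions. Genes averaging 1 FPKM or more among the libraries of a comparison were tested on log2(FPKM + 1) with limma 3.58.1 (lmFit and eBayes with trend, R 4.3.3), with Benjamini-Hochberg adjustment and a threshold of 0.05. Members under the filter got a two-sided exact permutation test (Python 3.11.15). The fits were tested on simulated data. Groups came from the labels, and in 12 double knockout files from the column heading. Sequences came from RefSeq, with entries for 7 of the 9 members and none printed for Emx2, Rax, Nkx2-1, Vax1 and Vax2. Genes outside the list were named where they had the largest or smallest change in a list, changed against the list's direction, or were most like the members. Some genes that this rule names are not reported here. The members and lists were chosen with earlier results of these data known.

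The alternatives were another pseudocount, filter, scaling or variance model, all groups in 1 fit, grouping by record, the replicate block and leaving out each library. Grouping by record only exchanged the names DKO_Ex and DKO_CD, so it added no new values.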

Additional observations from a re-analysis of the deposited data

Results flagged for a closer look

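Of 32 groups of 4 or 6 libraries, 8 held a library that stood apart from the rest by Dixon's criterion. Chance gives about 1 in 20, but this rate does not apply to 3 of the 8, which had a single library above 0 and meet the criterion by construction. In the Fb, Emx2 was 9.87 FPKM in TKO_Ex replicate 4, with the next library at 21.1 FPKM, and Vax1 was 26.7 FPKM in WT replicate 5, with the next at 12.2 FPKM. In the Mb, Lhx2 was 9.05 FPKM in WT replicate 5, with the next at 2.86 FPKM, and 7.56 FPKM in TKO_Ex replicate 2, with the next at 1.16 FPKM. Nkx2-1 was 1.24 FPKM in TKO_Ex Mb replicate 4, where the others were listed at 0, and 0.771 FPKM in WT Mb replicate 6. Single low values made up the rest, with Vax1 at 0.530 FPKM in WT Mb replicate 1 and Vax2 at 0.360 FPKM in WT Mb replicate 2, where the others were listed at 0. Groups of 3 libraries were not examined in this way.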

How the results depend on the processing

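Across 18 comparisons, 434 of 437 counts of called members stayed within 1.5 times their value, and no called member changed direction under any alternative. Of the 437, 358 were counts between mutants and WT or in interactions, which were 0 throughout, so the ratio has no meaning for them. The counts that changed by more were in DKO_CD, where 3 to 6 members were called lower in the Mb when a library was left out. The same range was 7 to 9 in WT, 6 to 8 in TKO_Ex and 6 to 7 in DKO_Ex. Under the other settings it was 8 to 9 in WT, 6 to 8 in TKO_Ex, 6 to 8 in DKO_Ex and 5 to 7 in DKO_CD. Of 2970 member values, 36 lost a call, 9 gained one and 141 changed sign without a call on either side. No member was called between mutants and WT or in an interaction in any of 358 settings. In the main fits of these comparisons only 0% to 0.203% of all genes were called. At most 2 members entered the main fits of mutants against WT in the Mb. Leaving out the 4 Fb libraries high in surface ectoderm markers, or 4 Mb libraries with a high member or low En1, was chosen after seeing the data. The main fits took Fb and Mb libraries as independent, although those of the same number may come from the same embryo. Same-numbered Fb and Mb libraries correlated at 0.008 to 0.14, with 4 of 16 over 0.1. Of the 16, 12 correlated best with their own number, and Xist was on the same side of 10 FPKM in 16 of 16 such pairs. With the replicate block 9, 8, 6 and 6 members were called in WT, TKO_Ex, DKO_Ex and DKO_CD, and none in the interactions. Vax2 and Hesx1 rested on a median of about 6 and 9.5 fragments per Fb library. The cause of these changes was not tested.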
